A study of Mus musculus with 4 samples.

Results

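The genes for the proteins of the cytosolic ribosome were examined in mouse mammary tumour cells that carry or lack Pak1, a p21-activated kinase. The rule took every gene name on the array made of Rpl or Rps, a number and no more than a single letter a, x, l or y, together with Rplp0 to Rplp2, and so left out names such as Rpl36al and Rpl22l1. It gave 79 of 31829 gene names and 168 of 39429 probes of 60 bases. The brightest probe of each gene stood for it, and 76 of the 79 genes were well above background on at least 2 of 4 arrays and were tested. The samples were tumour-derived cells from MMTV-Neu mice, whose transgene, carried by both groups, places the Neu (Her2) oncogene under a promoter of the mouse mammary tumour virus active in mammary epithelium. The genotype label was Pak1-/- for 2 samples and Pak1+/+ for the other 2. All were grown in low calcium medium with 5% horse serum, deprived of serum for 3 h and given EGF for 15 min before total RNA was taken. The submitters describe the pair of samples in a group as derived from different tumours, so that p-values measure the spread between 2 such cell samples, and animal age was not given in the sources used here. Values are log2 intensities of the single Cy3 dye after quantile normalization, and each difference is Pak1-/- minus Pak1+/+.

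The cytosolic ribosome reads messenger RNA on its small subunit, built from Rps proteins and 1 ribosomal RNA, and joins amino acids on its large subunit, built from Rpl proteins and the other ribosomal RNAs. A flexible stalk of Rplp0, Rplp1 and Rplp2 on the large subunit recruits the translation factors. The proteins are made in matched amounts, their messenger RNAs are among the most abundant in growing cells, and most of these begin with a run of pyrimidines through which mTOR signalling controls their translation. Free Rpl5 and Rpl11, bound to the 5S ribosomal RNA, restrain Mdm2 and thereby stabilise p53.

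The single Pak1 probe read 12.21 and 12.25 where the label was Pak1-/- and 12.04 and 12.04 where it was Pak1+/+ (limma adjusted p = 0.07), so it was not lower in the first group. Where the probe lies relative to the deleted part was not given in the sources used here, and the groups are therefore named by their labels. All 4 arrays lay on 1 slide, with the 2 genotypes in separate positions, so position and genotype cannot be told apart. Between 62.2% and 70.4% of probes were well above background on an array. Of 10 luminal epithelial markers, all tested, 3 were higher in the samples labelled Pak1-/- (Cdh1, Krt8 and Krt18) and 3 lower (Krt7, Erbb2 and Elf3), or 2 and 4 when scaled to the 75th percentile of each array. Krt8 was at 18.69 and 18.68 against 18.09 and 18.14 and Epcam at 15.01 and 15.07 against 15.33 and 15.23, while Krt19 was dim, at 6.94 to 8.13. At the same time 4 of 8 fibroblast markers, 1 of 8 leukocyte markers (Lyz2) and 2 of 5 endothelial markers were near background on every array. Among the leukocyte markers above it were Itgam, at 15.20 to 16.07, and Cd3e, at 11.34 to 11.71.

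The differences of the ribosomal protein genes were small after quantile normalization, and the higher calls, unlike the lower ones, were lost on scaling to the 75th percentile. Among the 76 tested, 10 were higher and 20 lower in the samples labelled Pak1-/- (limma, Benjamini-Hochberg adjusted p under 0.05), and 46 did not pass. These 30 calls were 39.5% of the members, beside 51.0% of all 21961 genes tested. Higher calls made up 13.2% of members and 22.8% of all genes, and lower calls 26.3% and 28.2%. Scaled instead to the 75th percentile of each array, none was higher and 48 were lower, beside 21.2% and 28.8% of all genes. The median difference was -0.09 for members and -0.06 for all genes, and -0.36 and -0.07 under the second scaling. Differences of at least 0.5 log2 were found in 4 members (5.26%) and in 34.2% of all genes, and differences of at least 1 log2 in 1 member (Rpl21) and 12.9% of all genes. The median size of a difference after quantile normalization, whatever its sign, was 0.18 for members and 0.32 for all genes. For the 310 genes outside the family that were about as bright, described below, it was 0.21. With a sample left out, fewer members were called, and a smaller share of all genes as well. Without Pak1-/- sample 1 there were 4 higher and 8 lower members, beside 18.9% and 21.4% of all genes. Without Pak1-/- sample 2 there were 4 and 10, beside 20.7% and 23.5%. Without Pak1+/+ sample 1 there were 2 and 7, beside 17.3% and 20.2%, and without Pak1+/+ sample 2 there were 2 and 8, beside 17.4% and 20.5%. In these bulk samples, fewer cells of a type and less RNA per cell cannot be told apart.

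After quantile normalization, which draws the arrays together, the arrays of a group lay close for these genes. The median gap between the 2 arrays of a group was 0.04 for members in either genotype, beside 0.11 (Pak1-/-) and 0.08 (Pak1+/+) for all genes. The values of the groups did not overlap in 65 of 76 members (85.5%), beside 77.6% of all genes. Of these 65, 22 lay higher and 43 lower in the samples labelled Pak1-/-, beside 34.2% and 43.4% of all genes. Before any scaling, the member medians of the 2 arrays labelled Pak1-/- were further apart, at 17.81 and 18.07.

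After quantile normalization both subunits held genes of either direction. In the small subunit, 4 of 30 genes were higher and 8 lower, with a median of -0.07. In the large subunit, stalk included, 6 of 46 were higher and 12 lower, with a median of -0.11. The lower shares, 26.7% and 26.1%, were near the 28.2% of all genes, and the higher shares, 13.3% in the small subunit and no more than that in the large, were below the 22.8% of all genes. Scaled to the 75th percentile, neither subunit had a higher call, and 17 small and 31 large subunit genes were lower. Under that scaling 21.2% of all genes were higher and 28.8% lower. After quantile normalization the 3 stalk genes had a median of -0.17 and none passed the threshold in limma with its brightest probe, where 1 of them was lower at an unadjusted p under 0.05. For Rplp0 that probe was saturated on both arrays labelled Pak1+/+, and both of its unsaturated probes passed as lower.

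**Figure D1:**
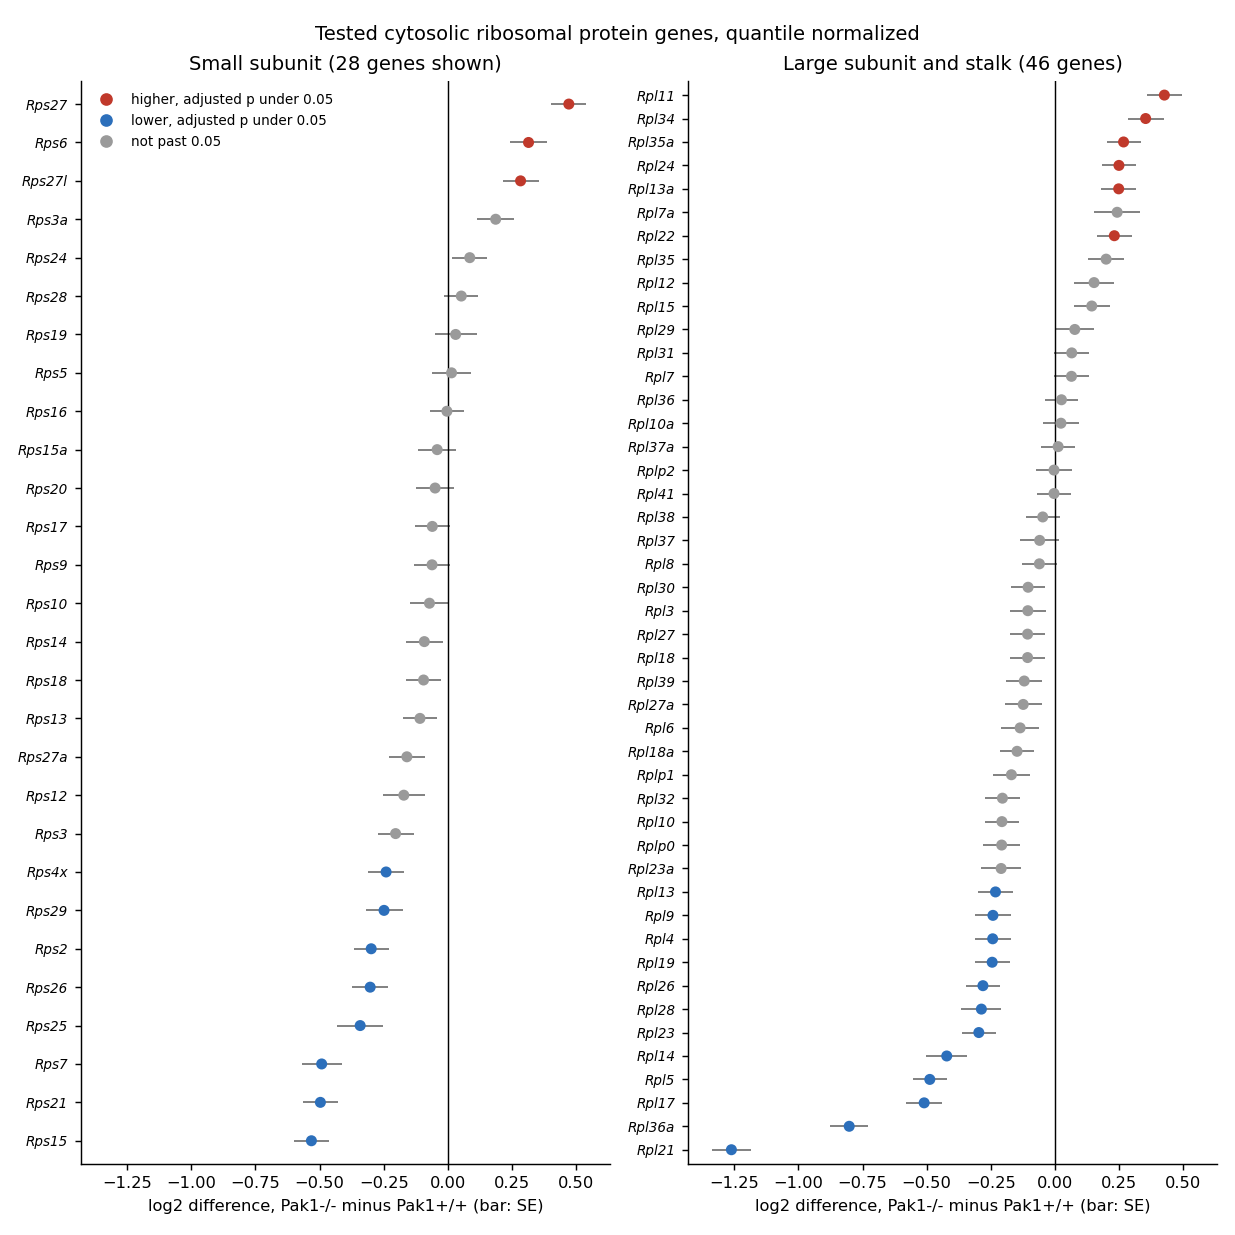
Difference in log2 intensity (Pak1-/- minus Pak1+/+, x axis) of 74 tested ribosomal protein genes after quantile normalization, by subunit. Points are fitted differences and bars their SE, coloured by call at an adjusted p of 0.05; all but Rpl21 lie between -0.80 and 0.47, and none of the higher calls passed after scaling to the 75th percentile.

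The count of calls by direction depended on how the arrays were scaled. Ribosomal protein probes lie at the bright end of the array, with 68 of the 76 above 17 log2. Before any scaling, the median log2 intensity of the members was 17.81 and 18.07 in the 2 arrays with the Pak1-/- label and 18.26 and 18.23 in the 2 with the Pak1+/+ label. Both arrays of the first group were thus dimmer for these genes than both arrays of the second, while the median over all genes tested lay between 10.58 and 10.67 on the 4 arrays. Quantile normalization gives each array the same distribution of intensities, which brought the member medians to 18.07, 18.09, 18.11 and 18.11.

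When the same background-corrected values were instead scaled to the 75th percentile of each array, no member was higher and 48 were lower (limma, adjusted p under 0.05; none was higher at an unadjusted p under 0.05 either). The lower calls in all genes were 28.8% under that scaling, and the higher calls 21.2%. The member median moved to -0.36, against -0.07 for all genes. Agilent's processed signal under the same scaling gave 0 higher (none at an unadjusted p under 0.05), 46 lower and a median of -0.38, beside 20.6% higher and 27.7% lower in all genes. Cyclic loess gave 11 higher, 18 lower and a median of -0.06, beside 26.4% and 24.2%. Centring each array on the member median, chosen after seeing the data, gave 6 higher and 7 lower, beside 32.1% and 11.7% of all genes.

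Other genes as bright as the members moved with them. The 310 genes outside the family at or above the lower quartile of member levels (17.57 log2) had a median of -0.04 after quantile normalization and -0.31 after scaling to the 75th percentile. After quantile normalization 48 of them were higher and 78 lower, which was 40.6% called. Whether the family differed from these equally bright genes was not tested.

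**Figure D2:**
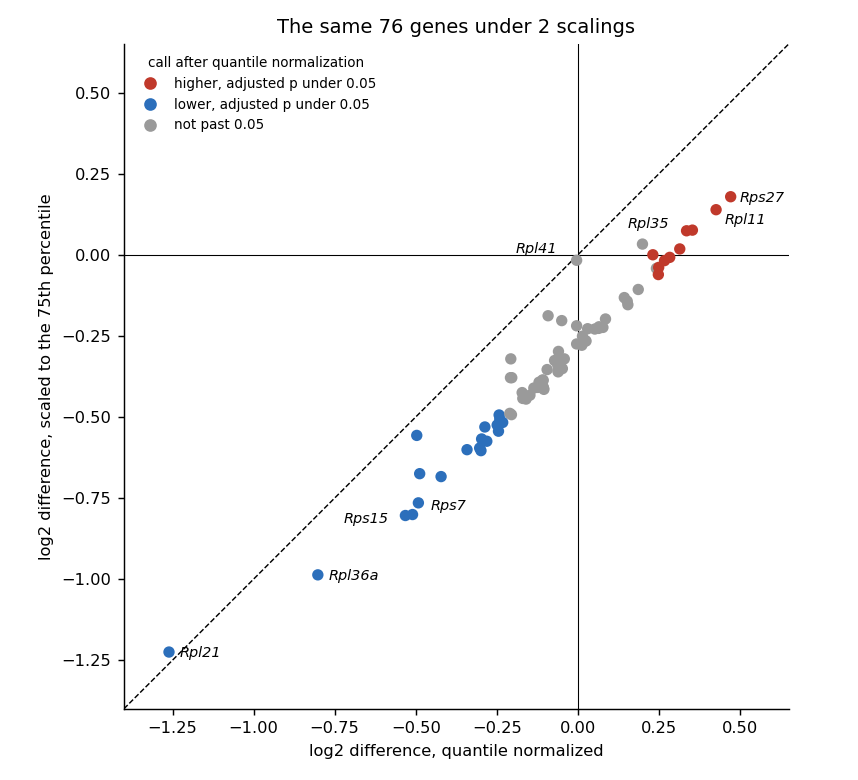
Difference of each of the 76 genes after quantile normalization (x axis) and after scaling to the 75th percentile of each array (y axis), both in log2; the dashed line marks equal values and colours give the call after quantile normalization. Nearly all points lie below the line, and the 10 genes called higher fall to between -0.06 and 0.18 on the y axis.

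Rpl36a, a protein of the large subunit, was among the most reduced members. Its brightest probe (mm9 chrX:131122540-131122599, plus strand) read 15.88 and 15.95 for the label Pak1-/- and 16.69 and 16.75 for the label Pak1+/+, the order in which values are set against each other below. Both values of the first group lay well below both of the second. The difference was -0.80 (SE 0.07, limma adjusted p = 0.00146), a 1.74-fold reduction, and -0.99 under the 75th percentile. All 3 of its probes were called lower, between -0.82 and -0.72. A probe that is open in a forward reading frame is shown as a sequence on which this reading rests (chrX:131122046-131122105, plus strand, difference -0.72).
Rpl36a: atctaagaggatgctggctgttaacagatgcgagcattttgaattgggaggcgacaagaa

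Its close relative Rpl36al, which the naming rule leaves out, read 15.40 and 15.38 against 16.29 and 16.23. That gene was also lower, by -0.87 (limma adjusted p = 0.00106). No run of 30 bases was shared between a Rpl36a probe and a probe of another name.

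The small subunit showed its clearest reductions in Rps15, Rps21 and Rps7. Rps15, which sits in the head of the small subunit near the decoding site, read 17.03 and 17.05 against 17.59 and 17.56 (mm9 chr10:79756716-79756775, plus strand). The difference was -0.53 (SE 0.07, limma adjusted p = 0.00356), and its second probe was at -0.75. Rps21 had 1 probe, with 14.98 and 15.02 against 15.48 and 15.51 (chr2:179993084-179993143, plus strand). It fell by 0.50 (SE 0.07, limma adjusted p = 0.00452), a call lost, among the 15 alternatives run for it at this threshold, only when arrays were centred on the member median (adjusted p = 0.0923). Rps7, a small subunit protein that can also bind Mdm2, read 16.96 and 17.06 against 17.54 and 17.46 (chr12:29319087-29319146, minus strand). Its difference was -0.49 (SE 0.08, limma adjusted p = 0.00693). In none of these 3 genes did the groups overlap. Scaled to the 75th percentile, Rps15 was at -0.80, Rps21 at -0.56 and Rps7 at -0.77.

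Rpl17, a protein lining the exit tunnel of the large subunit, carried the most probes of any member. All 7 were lower, from -1.02 to -0.43, and the brightest (mm9 chr18:75161731-75162328, plus strand) read 17.59 and 17.65 against 18.14 and 18.11. That difference was -0.51 (SE 0.07, limma adjusted p = 0.00444), and -0.80 under the 75th percentile. Both arrays labelled Pak1-/- were below both labelled Pak1+/+ for it.

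Apart from Rpl21 and Rpl5, given below, the remaining lower calls were smaller with the brightest probe. Rpl14 fell by 0.42 and Rps25, a small subunit protein needed by some viral internal entry sites, by 0.34. Rps26, Rps2, Rpl23, Rpl28, Rpl26, Rps29, Rpl19, Rpl4, Rpl9, Rps4x and Rpl13 lay between -0.30 and -0.23, with limma adjusted p from 0.0193 to 0.0451, and between -0.60 and -0.49 under the 75th percentile. Of these genes with several probes, each but Rps29 had a dimmer probe that lay lower. Such probes were at -1.63 for Rpl14, -0.95 for Rpl23, -0.80 for Rps25, -0.58 for Rpl13 and -0.55 for Rpl26. The 3 Rps29 probes are placed by the file at mm9 chromosome 2, and whether this is the locus of the expressed gene was not tested. The 2 Rpl12 probes are placed at chromosome 10, while the RefSeq start of Rpl12 (GRCm38.p6) lies on chromosome 2. That placement is thus not the annotated locus of the gene.

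Rpl21, a large subunit protein, had the widest difference of the tested members, on dim probes. Its brightest probe (mm9 chr5:147648267-147648326, plus strand) read 8.57 and 8.64 against 9.82 and 9.91, and the second probe 8.77 and 8.91 against 9.55 and 9.66. Both arrays labelled Pak1-/- were lower for each probe, by -1.26 (SE 0.08, limma adjusted p = 0.000523) and -0.77. Another 15 probes carry other names but are described in the file as similar to ribosomal protein L21, and their levels reached 17.58. Of these, 14 were lower, from -1.01 to -0.42, and 1 stood at -0.02.

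The higher calls were led by Rps27, a zinc-binding protein of the small subunit. Its brightest probe (mm9 chr3:90016593-90016652, minus strand) read 18.50 and 18.53 against 18.03 and 18.06. Both values of the first group exceeded both of the second. The difference was 0.47 (SE 0.07, limma adjusted p = 0.00516) but 0.18 under the 75th percentile (adjusted p = 0.134). Its second probe gave 0.51, and 3 probes of other names that share most of its brightest probe's bases gave 0.47 to 0.54. Rps27l, the paralog that p53 induces, also rose after quantile normalization, with 17.70 and 17.76 against 17.43 and 17.46. It was at 0.28 (SE 0.07, limma adjusted p = 0.0259), and at -0.01 under the 75th percentile. A probe of Rps27 that is likewise open in a forward frame (the one at 0.51) is shown as the counterpart of the Rpl36a probe among the lower genes. Its coordinates (chr3:90016928-90017135, minus strand) span more bases than the probe, as they do for a probe across an intron.
Rps27: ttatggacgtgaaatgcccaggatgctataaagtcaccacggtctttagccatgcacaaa

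Rpl34, a large subunit protein, read 18.64 and 18.71 against 18.33 and 18.31, without overlap. It was higher by 0.35 (SE 0.07, limma adjusted p = 0.0136) and at 0.08 under the 75th percentile. The Rpl34 call was kept in 11 of 15 alternatives, and was lost without Pak1+/+ sample 1 (adjusted p = 0.0675) or sample 2 (0.0733) as well as under both scalings to the 75th percentile. Rps6, the small subunit protein that S6 kinase phosphorylates, read 18.05 and 18.05 against 17.77 and 17.70. The groups were apart by 0.31 (SE 0.07, limma adjusted p = 0.0202), and by 0.02 under the 75th percentile. The other Rps6 probes did not pass, at 0.16 (limma adjusted p = 0.153) and -0.15 (0.202).

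Further higher calls were Rpl35a, Rpl24, Rpl13a and Rpl22, between 0.23 and 0.27 after quantile normalization and between -0.06 and 0.00 after scaling to the 75th percentile. Rpl35a is one of the genes mutated in Diamond-Blackfan anaemia, and Rpl13a is often used as a reference gene. None of the 10 higher calls passed under the second scaling, where 5 turned negative (Rps27l, Rpl35a, Rpl24, Rpl13a and Rpl22, the last by less than 0.01). Among the 15 alternatives run for each, Rps6 kept its call in 8, Rps27l in 7, Rpl35a in 6, Rpl13a in 5 and Rpl22 in 4.

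**Figure D3:**
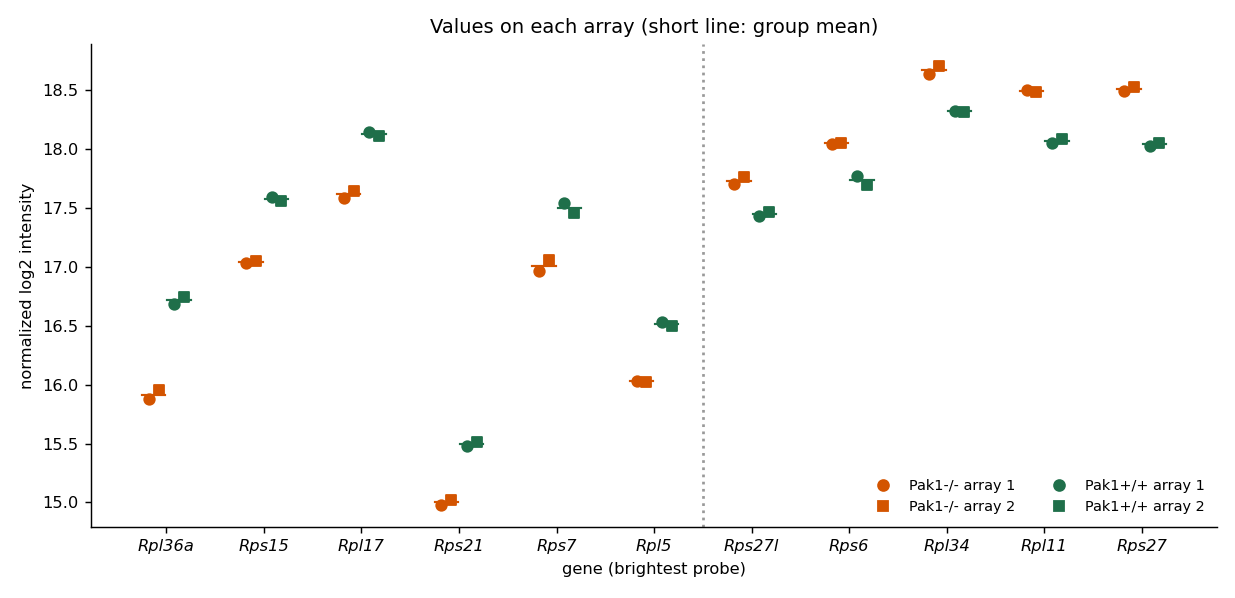
Normalized log2 intensity (y axis) of 6 lower and 5 higher members on each of the 4 arrays, with a short line at each group mean. The groups did not overlap in any of the 11 genes; the 5 on the right did not pass after scaling to the 75th percentile, where Rps27l turned to -0.01.

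Rpl5 and Rpl11, the partners in the 5S particle, moved apart. Rpl5 (mm9 chr5:108333834-108333892, plus strand) read 16.03 and 16.02 against 16.54 and 16.50. Rpl11 (chr4:135605902-135606224, minus strand) read 18.50 and 18.49 against 18.05 and 18.08. The first was lower by -0.49 (SE 0.07, limma adjusted p = 0.00452) and the second higher by 0.43 (SE 0.07, limma adjusted p = 0.00677), and both sets of groups were free of overlap. All 3 Rpl11 probes were called higher, from 0.36 to 0.43, while Rpl5 had 1 probe. After scaling to the 75th percentile Rpl5 stood at -0.68 (adjusted p = 0.00206) and Rpl11 at 0.14 (adjusted p = 0.213). The 2 probes are shown as the pair this contrast rests on.
Rpl5: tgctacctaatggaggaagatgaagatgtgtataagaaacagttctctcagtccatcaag
Rpl11: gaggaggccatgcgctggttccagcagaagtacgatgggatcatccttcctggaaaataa

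A ratio of 2 probes on 1 array does not change when all values of that array are multiplied by the same factor, as in scaling to a percentile, though it does under quantile normalization. Without any scaling, the log2 ratio of Rpl11 to Rpl5 was 2.41 and 2.40 against 1.53 and 1.64. It was higher by 0.81, a 1.76-fold change that was larger than the gap of either pair of arrays. For Rps27 to Rpl36a the ratio was 2.53 and 2.51 against 1.37 and 1.34, higher by 1.17 or 2.24-fold. The paralogs differed less, with Rps27 to Rps27l at 0.83 and 0.74 against 0.60 and 0.58. The first 2 pairs were chosen because their genes had been called in opposite directions, so these ratios are a description and support nothing about the family, and an exact permutation test of 2 arrays against 2 cannot give a p under 0.333.

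Of the stalk genes, Rplp0 depended on the probe. Rplp0, the anchor of the stalk, read 18.75 and 18.81 against 19.02 and 18.95 with its brightest probe, at -0.21 (limma adjusted p = 0.068), but that probe was saturated on both arrays of the second group, so its difference is only a bound. Its unsaturated probes were called lower, at -0.30 (limma adjusted p = 0.0327) and -0.33 (adjusted p = 0.0144). The gene also passed as lower when saturated probes were left out, at -0.30, and over the mean of its probes, at -0.28. Rplp1 read 18.07 and 18.15 against 18.29 and 18.27, at -0.17 (adjusted p = 0.107), and Rplp2 read 18.59 and 18.65 against 18.63 and 18.62, at -0.00 (adjusted p = 0.963). Groups overlapped for Rplp2 and not for the other stalk genes. Normexp values scaled to the 75th percentile had all 3 lower, at -0.38, -0.44 and -0.28, while the processed signal under that scaling left Rplp2 short of the threshold (-0.28, adjusted p = 0.0664) and cyclic loess put it at 0.04. Rps19, the gene most often mutated in Diamond-Blackfan anaemia, overlapped between groups, at 16.98 and 17.11 against 17.04 and 16.98.

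The tissue-restricted paralogs were dim. Rpl3l, the relative of Rpl3 found in striated muscle, read 6.56, 6.56, 7.87 and 6.57 and was well above background on 1 array, labelled Pak1+/+. Rpl10l and Rpl39l, known from the male germ line, stayed below that level on every array, at 6.10 to 6.42 and 6.06 to 6.43. The widely expressed counterparts were bright and did not pass the threshold after quantile normalization. Rpl3 read 17.65 and 17.59 against 17.71 and 17.74, and Rpl39 read 17.35 and 17.29 against 17.43 and 17.45. Scaled to the 75th percentile both passed as lower, at -0.41 (limma adjusted p = 0.0107) and -0.39 (0.0126). Rps4x, the X-linked copy, was lower by -0.24 (limma adjusted p = 0.0413), with 17.24 and 17.30 against 17.52 and 17.51, and no probe was named Rps4y. The Rps4x call was kept in 7 of 15 alternatives; it was lost with any sample left out (adjusted p from 0.0627 to 0.167), with the replicate block (0.0813), without the filter on dim probes (0.0713), in the authors' deposited log2 table (0.0717) and when arrays were centred on the member median (0.137).

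The brightest members reached the ceiling of the scanner. Of the 168 probes, 8 were saturated on at least 1 array: 1 and 3 for the label Pak1-/-, and 8 and 6 for the label Pak1+/+. Rpl41, the smallest ribosomal protein, was saturated on all 4 arrays, so no fold can be given. Rpl10, Rplp0 and Rps20 were saturated on both arrays labelled Pak1+/+ and on neither of the others, so that any fold is a bound, and only on the scale used. After quantile normalization Rpl10 was at least 1.15-fold (limma adjusted p = 0.0556) and Rplp0 at least 1.16-fold (0.068) brighter in the samples labelled Pak1+/+, Rpl10 with 18.87 and 18.90 against 19.09 and 19.09. With cyclic loess Rpl10 stood at 0.01 and Rplp0 at -0.06, so neither bound holds across scalings. After quantile normalization the unsaturated Rpl10 probe was at -0.18 (limma adjusted p = 0.087), beside -0.21 for the brightest. A second Rpl10 probe was also saturated on both arrays labelled Pak1+/+. For Rps20 the groups overlapped, at 18.91 and 18.93 against 18.92 and 19.02, and the difference was -0.05 after quantile normalization and 0.13 with cyclic loess, so no fold is given. Rps14 was saturated there and on 1 array labelled Pak1-/-, so that neither a fold nor a bound can be given. Rpl35 and Rpl37 had 2 and 1 saturated arrays.

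Probes of 1 gene did not always tell the same story. Among 53 members with at least 2 tested probes, the range of their differences had a median of 0.22; it was under 0.2 in 25 and over 0.5 in 14. Every tested probe was called in the same direction in 16 of these genes, beside 41.1% of all 4382 genes with at least 2 tested probes. Rpl11, Rpl24, Rpl34 and Rps27 were the 4 with all probes higher, beside 19.4% of those genes. The 12 with all probes lower, beside 21.7%, were Rpl9, Rpl13, Rpl14, Rpl17, Rpl21, Rpl23, Rpl26, Rpl36a, Rps2, Rps4x, Rps15 and Rps25. For Rpl13, Rps2 and Rps4x a probe is placed apart from the rest of its gene, at mm9 chromosome 4, chr17:42864841-42864900 and chromosome 3. Over the 164 tested probes, 18 were higher and 66 lower, beside 23.3% higher and 28.6% lower among all probes. Calls in either direction made up 51.2%, beside 51.9% of all probes, and the median was -0.17.

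Some ranges were over 1 log2. The 3 Rps24 probes, each annotated to a different RefSeq transcript, were at 0.09, -0.17 and 1.15 from the brightest to the dimmest. The last read 15.52 and 15.37 against 14.13 and 14.47 (limma adjusted p = 0.0032) and stayed higher under the 75th percentile (adjusted p = 0.00293), where no member was called higher by its brightest probe. Rpl14 ranged from -1.63 to -0.42 and Rpl31 from -1.12 to 0.07.

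In 4 of the 53 members, beside 1.62% of all such genes, probes passed in opposite directions, among them Rpl13a, Rpl22 and Rpl35a. In each of these 3, the bright probe was higher and a dimmer one lower. Rpl13a read 17.85 and 17.89 against 17.62 and 17.63 with its first probe and 14.61 and 14.66 against 15.01 and 14.98 with its second, at 0.25 and -0.36. Rpl22 read 16.80 and 16.82 against 16.55 and 16.60 with the first and 12.31 and 12.06 against 12.89 and 13.01 with the second, at 0.23 and -0.76. After scaling to the 75th percentile their dimmer probes stayed lower, while the bright ones did not pass, so that none of these 3 held opposite calls there.

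The Rpl35a pair shows how close such probes can be. The first (mm9 chr16:33058766-33058825) read 17.59 and 17.60 against 17.33 and 17.32 and was at 0.27, and the second (chr16:33057593-33058788) at -0.39. Their sequences overlap by 23 bases, of which 2 differ, marked by capitals.
Rpl35a, higher probe: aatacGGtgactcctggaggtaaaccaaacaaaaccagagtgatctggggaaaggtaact
Rpl35a, lower probe: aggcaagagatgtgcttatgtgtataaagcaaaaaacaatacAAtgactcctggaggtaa

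Many probes of other names read the same sequences. A run of at least 30 bases was shared between 44 probes of 34 members and 63 probes named for other genes, forming 68 pairs. The difference had the same sign in 63 pairs and agreed within 0.2 log2 in 61, with a median gap of 0.06. The signal of such a probe can come from the gene, a processed copy of it or both, and their shares cannot be told apart. The file itself lists predicted transcripts beside the gene for 112 of the 168 member probes. Rpl34 and Gm6404 illustrate the likeness, at 0.35 and 0.32, with 58 bases in common and 3 of them different, marked by capitals.
Rpl34 (chr3:130429830-130431677): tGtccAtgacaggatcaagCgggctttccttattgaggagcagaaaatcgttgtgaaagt
Gm6404 (chr13:116944244-116944303): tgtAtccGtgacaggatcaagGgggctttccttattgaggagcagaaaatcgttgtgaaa

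**Figure D4:**
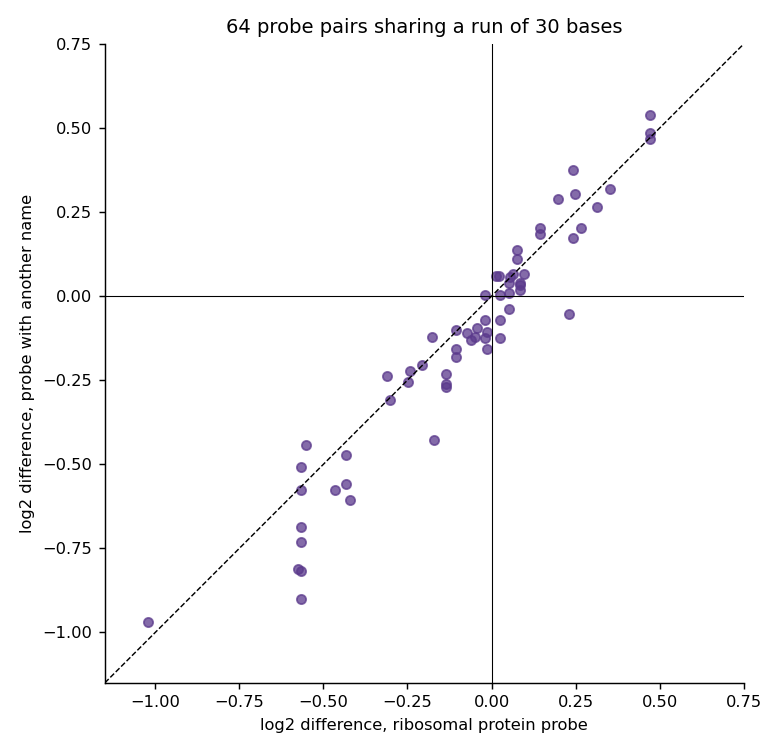
Difference in log2 (Pak1-/- minus Pak1+/+, quantile normalized) of a ribosomal protein probe (x axis) and of a probe of another name sharing a run of 30 bases (y axis), for 64 of the pairs. Most points lie close to the dashed line of equal values, and the Rpl17 probe at -0.57 is paired with values from -0.90 to -0.51.

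The pyrimidine run at the start of the message was looked up in RefSeq start sites (GRCm38.p6). It was searched as a C followed by at least 4 C or T bases, on the strand of the gene, beginning within 10 bases of the annotated start. Among 70 starts of 58 members, 39 (55.7%) held it, beside 30.7% of 32851 starts of all genes. By gene, it was found in 7 of 9 members called higher, 8 of 17 called lower and 19 of 29 that did not pass. A run missing from this window says only that these letters are not there.

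Windows of 30 bases around the start are shown for 3 members with the run, in capitals, and for 2 without it, so that members of either direction can be compared.
Rps27 (chr3:90213634-90213663, minus strand): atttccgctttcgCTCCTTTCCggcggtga
Rps6 (chr4:86857353-86857382, minus strand): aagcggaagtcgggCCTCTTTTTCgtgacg
Rpl14 (chr9:120571502-120571531, plus strand): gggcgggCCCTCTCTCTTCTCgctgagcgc
Rpl11 (chr4:136053379-136053408, minus strand): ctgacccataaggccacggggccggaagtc
Rpl5 (chr5:107900513-107900542, plus strand): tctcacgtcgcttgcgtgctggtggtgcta
Rps27 and Rps6 were higher and Rpl14 lower after quantile normalization, and of the 5S pair neither carried the run in this window.

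Among genes that build ribosomes, lower calls made up a larger share than the 28.2% of all genes, beside 22.8% higher. Of 40 ribosome biogenesis genes, 34 were lower (85.0%) and none higher (limma; none higher at an unadjusted p under 0.05), with a median of -0.66. Dkc1, the pseudouridine synthase of box H/ACA particles, read 10.45 and 10.48 against 11.75 and 11.92, at -1.37, and Nolc1, a nucleolar chaperone of these particles, was at -1.09. Of 14 RNA polymerase I genes, 9 were lower (64.3%) and 1 higher (7.14%), with a median of -0.50, Polr1b at -1.14 and Polr1e at 0.27. The Polr1e call (limma adjusted p = 0.0496) was lost with the processed signal, over the mean of probes and in the authors' deposited log2 table, among others. Scaled to the 75th percentile, the medians of these lists were -0.68 and -0.48, so that they moved far less with the scaling than the members did. The difference between the lists and the members was not tested.

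The translation machinery around the ribosome lay closer to the members. Of 16 elongation factors and other messages with a pyrimidine start, 7 were lower (43.8%) and 2 higher (12.5%), beside the same 28.2% and 22.8% of all genes. Their median was -0.18, and -0.31 when scaled to the 75th percentile. Eef1g and Eef1d, subunits of the factor that recharges eEF1A, were at -0.56 and -0.45, and the initiation factors Eif4a2 and Eif3f at 0.46 and 0.35. Of 29 initiation genes, 11 were lower (37.9%) and 1 higher (3.45%), with a median of -0.14, Eif2s3x at -0.96, Eif2s1 at -0.85 and Eif4g1 at 0.40. Among the mitochondrial ribosomal proteins, 40 of 74 were lower (54.1%) and 9 higher (12.2%), with a median of -0.28, Mrpl35 at -0.89, Mrpl12 at -0.86, and Mrps6 and Mrpl24 both at 0.71. Scaled to the 75th percentile, 45 of them were lower and 4 higher, beside 28.8% and 21.2% of all genes, with a median of -0.34. The 7 cytosolic ribosomal genes that the naming rule leaves out had 4 lower (57.1%) and none higher (none at an unadjusted p under 0.05), among them Rpsa at -0.46. The lower count fell to 2 without saturated probes, where the median went from -0.26 to -0.01, to 2 in the authors' deposited log2 table, and to 2 and 1 without Pak1+/+ sample 1 and 2.

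**Figure D5:**
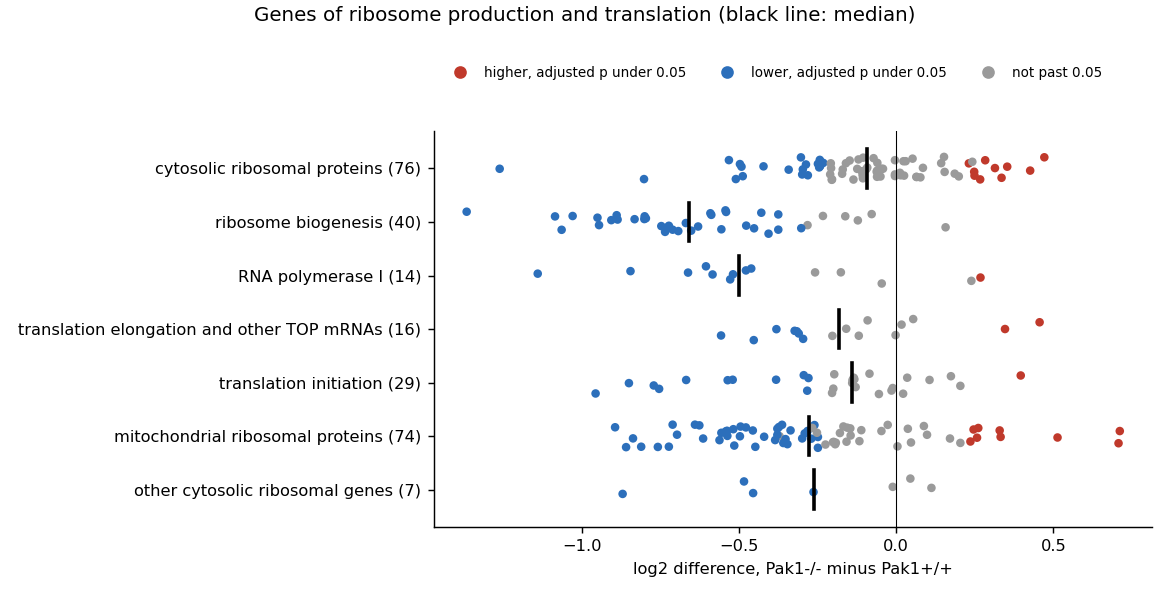
Difference in log2 (x axis) of every tested gene of 7 groups of ribosome production and translation after quantile normalization, coloured by call, with the median as a black line. The median was -0.09 for the 76 cytosolic ribosomal proteins, -0.66 for ribosome biogenesis and -0.28 for mitochondrial ribosomal proteins; scaled to the 75th percentile the first became -0.36.

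Other properties of the samples moved with the genotype label beside these results. Of 19 tested proliferation genes, 17 were lower (89.5%, beside 28.2% of all genes) and none higher (limma; 1 higher at an unadjusted p under 0.05), with a median of -0.88. Their summed log2 level was 18.43 and 18.63 against 19.40 and 19.35. Of 6 tested basal epithelial markers, 5 were higher (83.3%, beside 22.8% of all genes), and the summed level was 16.53 and 16.41 against 14.25 and 14.21. Krt17 and Krt14 led them, at 4.92 and 2.83. The part of either in the ribosomal protein values was not tested.

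Markers of cells outside the epithelium were mixed. Of 6 tested leukocyte markers 2 were lower (33.3%, beside 28.2% of all genes), with a summed level of 15.68 to 16.19 against 15.42 to 15.56. Fibroblast markers summed to 10.43 to 10.61 against 10.25 to 10.29, with Col3a1, Dcn, Lum and Pdgfrb near background on each of the 4 arrays. Of 3 tested fibroblast markers Col1a1 was higher, at 1.12 (limma adjusted p = 0.00512), with 9.31 and 8.88 against 8.03 and 7.93. Endothelial markers summed to 13.29 to 13.34 against 13.15 to 13.41, with Tek and Emcn also near background throughout and Kdr between 12.99 and 13.27. Their part in the ribosomal protein values was not tested.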

How the data were processed

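Total RNA of 4 samples (0.5 µg labelled each) was measured on single-colour Agilent arrays. The authors deposited linear spot intensity values from the scanner (Agilent Feature Extraction 9.5, file header 9.5.3.1), not normalized between arrays, and a log2 table made, per their methods, by normexp background correction followed by quantile normalization. From the intensities, normexp with an offset of 50 and quantile normalization were run in limma 3.58.1 (R 4.3.3), spots with outlier flags were set aside and the spots of a probe were averaged. The offset and the filter below were set here. Values computed here tracked the deposited log2 table (r = 0.9998 across probes, which are not independent replicates). The 27229 probes that reached the well-above-background flag on 2 or more of the 4 arrays were compared between genotypes with lmFit and eBayes, without further terms, and p-values were adjusted over all of them by Benjamini-Hochberg at 0.05. Fits were tested on simulated data.

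The members and gene lists were chosen with earlier results of these data known. Some genes are not reported here by name. Otherwise, named in full were the 6 members with the largest called difference in each direction, the stalk genes, Rpl5, Rpl11, Rps19, paralog pairs, dim members, members whose probes were called in opposite directions and, of each related list, up to 2 genes a direction. Probe coordinates are those of the files (mm9). Start sequences are from RefSeq (GRCm38.p6), were matched by symbol for 58 of 79 members, and cover no member on chromosome 18. A bound for a saturated probe takes its recorded value. The alternatives were other background corrections, scalings, filters, treatments of saturated probes, probe summaries, thresholds, leaving out each sample, and the replicate number as a block. The number of arrays limits the precision. Same-numbered samples did not deviate together (r = -0.03), and the human cells of the study were not analysed here.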

Additional observations from a re-analysis of the deposited data

How the results depend on the processing

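With 2 arrays a group, the calls of small differences in bright probes changed with the scaling. In the order higher then lower, the members called were 0 and 46 with the processed signal at the 75th percentile, 0 and 48 with normexp values at the 75th percentile, 6 and 33 with the mean of a gene's probes (all genes 22.5% and 28.2%), 2 and 7 at an adjusted p under 0.01 (15.3% and 17.1%), 0 and 2 with 1.5-fold added (13.5% and 14.1%), 5 and 12 with the replicate block (21.7% and 26.2%), and 6 and 7 centred on the member median, an alternative chosen after seeing the data. Without the filter on dim probes 12 were lower (17.2% of all genes). Leaving out each sample in turn gave 2 to 4 higher and 7 to 10 lower, with the lone sample assumed to vary like the other group. The replicate numbers share only a number, and the block is given for that reason alone. The cause of these changes was not tested, beyond the smaller number of samples when 1 is left out and the stricter thresholds.

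The member median, -0.093 as reported, was -0.376 with the processed signal, -0.356 at the 75th percentile, -0.057 with cyclic loess, -0.106 without saturated probes or with the brightest unsaturated probe, -0.168 over the mean of probes, -0.068 in the authors' deposited log2 table and -0.049 centred on the member median. It stayed negative in each, but the last setting removes the member median of each array, so its sign says nothing. With a sample left out the member median ran from -0.096 to -0.079. For the small subunit the values were -0.350, -0.333, -0.050 (cyclic loess), -0.101 (mean of probes) and -0.047 (deposited), and -0.095 to -0.044 with a sample left out. For the large subunit they were -0.391, -0.383, -0.076, -0.185 and -0.073.

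Of the 76 members, 26 were above 0 as reported, 6 with normexp values at the 75th percentile, 5 with the processed signal, 33 with cyclic loess and 32 centred on the member median. Among the named members, with the processed signal Rps6 was at -0.010, Rps27l -0.033, Rps19 -0.249, Rpl13a -0.093, Rpl22 -0.034 and Rpl35a -0.058. With normexp values at the 75th percentile Rps27l was at -0.008, Rps19 -0.228, Rpl13a -0.061, Rpl22 -0.000 and Rpl35a -0.018. Over the mean of probes Rpl13a was at -0.057, Rpl22 -0.266 and Rpl35a -0.063. Rplp2 was at 0.039 with cyclic loess, 0.012 in the deposited table, -0.035 to 0.026 with a sample left out (positive without Pak1-/- sample 1) and 0.032 centred on the member median. Rpl10 was at 0.007 with cyclic loess, and Rps19 at -0.037 to 0.097 with a sample left out (negative without Pak1-/- sample 2). Of 360 values of named members under the alternatives, 269 kept direction and call, 55 lost the call, 16 gained one and 20 turned sign. Rpl21, Rpl36a, Rps15, Rpl17, Rps7 and Rpl5 kept an adjusted p under 0.05 in all 15 alternatives run for each at that threshold, but only Rpl21 and Rpl36a also reached 1.5-fold.

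Called probes on the whole array, 14132 as reported, were 8878 at an adjusted p under 0.01 and 7570 with 1.5-fold added. In the related lists, medians with the processed signal, normexp at the 75th percentile and cyclic loess were -0.473, -0.442 and -0.119 for the other cytosolic ribosomal genes (-0.011 without saturated probes and -0.003 in the deposited table), -0.693, -0.683 and -0.575 for ribosome biogenesis, -0.520, -0.480 and -0.416 for RNA polymerase I (-0.478 deposited, -0.519 to -0.454 with a sample left out), and -0.357, -0.341 and -0.182 for the mitochondrial ribosomal proteins. They were -0.327, -0.308 and -0.130 for elongation (-0.249 over the mean of probes). For initiation the first pair were -0.278 and -0.259, with -0.200 over the mean of probes and -0.175 to -0.160 with a sample left out, and the proliferation median was -0.983 with the processed signal and -0.785 with cyclic loess.

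Lower calls at an adjusted p under 0.01 and with 1.5-fold added were 1 and 1 for the other cytosolic ribosomal genes (2 without saturated probes, 2 deposited, 1 to 3 with a sample left out), 2 and 0 for elongation (2 to 4), 7 and 5 for initiation (7 to 8), and 24 and 11 for the mitochondrial proteins (23 to 36). With 1.5-fold added, 4 RNA polymerase I genes were lower. The 1 higher RNA polymerase I gene became 2 with cyclic loess and 0 with the processed signal, offset 16, no filter, the mean of probes, the deposited table, either threshold, the replicate block, or any sample left out. Higher elongation calls became 1 at the 75th percentile or without the filter, 0 with the processed signal or either threshold, and 0 to 1 with a sample left out. Higher initiation calls became 0 at the 75th percentile or with 1.5-fold added, and were 0 to 1 with a sample left out. Higher mitochondrial calls were 3 with the processed signal, 4 at the 75th percentile, 5 without the filter, 3 and 2 at the thresholds, 5 with the replicate block and 3 to 5 with a sample left out. With cyclic loess 1 ribosome biogenesis and 1 proliferation gene were higher, and 1 proliferation gene with the replicate block and 0 to 1 with a sample left out.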
